A study of Mus musculus with 6 samples.

Results

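The genes described here serve retinoic acid, the active hormone made from vitamin A. They are Stra6, which takes up retinol, the retinaldehyde dehydrogenases Aldh1a1, Aldh1a2 and Aldh1a3, which make retinoic acid, Cyp26b1, which breaks it down, and Rara, Rarb, Rarg and Rxra, which encode nuclear receptors. The set of 9 was chosen by name, and it was chosen because Aldh1a2 had stood out in these same counts among the genes with the largest difference between the groups. The values that picked it are the ones in the comparison given below, so the members' differences between groups are a description and carry no p-value. Each of the 9 symbols matched 1 Ensembl gene of the 53465 in the count matrix. Of the 9, 7 passed the filter on low counts, which asked for about 0.787 CPM (the read count scaled for library depth by TMM) in at least 3 libraries, and Cyp26b1 and Rarb did not. Aldh1a2 lay above that level in all libraries of both groups, so it did not enter through its high group alone.

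RNA came from brain endothelial cells, the cells that line the brain's vessels. The tissue was cortex, and the mice were male and 8 to 12 weeks old. All mice of both groups had the genotype tie2-Cre; ai9; rpl22HA/HA. The tie2 promoter drives Cre in endothelium and also in some blood cells, ai9 gives red fluorescence after Cre has acted, and rpl22HA is a ribosomal protein gene that gains a tag where Cre is active. The PBS group (3 libraries, numbered 1, 2 and 4) was injected with phosphate buffered saline. The PTZ group (3 libraries with the same numbers) was injected with pentylenetetrazol, a blocker of inhibitory GABA-A receptors that provokes seizures. The dose, the time to collection and the step that separated the cells or their ribosomes were details not given in the sources used here. No label says that the libraries came from separate animals, so the spread between them may be technical.

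As background, retinol reaches cells bound to a carrier protein, and STRA6 is a membrane receptor that passes it inward. Retinol is oxidised to retinaldehyde by reversible steps, and the ALDH1A enzymes then oxidise retinaldehyde to retinoic acid in a step that is not reversed. Retinoic acid binds RAR proteins, which sit on DNA as pairs with RXR proteins at repeats of a short sequence, and CYP26 enzymes clear it. In the brain the meninges are a known source of retinoic acid, and retinoic acid has been linked to the formation of the blood-brain barrier.

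Promoter sequences are shown for the gene with the widest difference between groups, for its best expressed relative and for the receptor gene known as a direct target of retinoic acid. RefSeq (GRCm38.p6) gave windows for 8 of the 9 members, all but Aldh1a3, with 17 windows in all because some genes have several start sites. Each line below gives the 250 bases before a start site, 5′ to 3′ on the gene's strand. Capitals mark an octamer motif in the first and second sequences and a retinoic acid response element of the DR5 type in the third.
Aldh1a2, chr9:71215539-71215788, plus strand: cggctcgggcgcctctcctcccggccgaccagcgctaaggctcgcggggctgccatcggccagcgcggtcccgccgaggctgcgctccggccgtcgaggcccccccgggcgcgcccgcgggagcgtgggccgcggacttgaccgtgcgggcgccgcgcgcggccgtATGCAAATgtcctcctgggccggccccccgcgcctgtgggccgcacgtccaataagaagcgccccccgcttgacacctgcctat
Aldh1a1, chr19:20601718-20601967, plus strand: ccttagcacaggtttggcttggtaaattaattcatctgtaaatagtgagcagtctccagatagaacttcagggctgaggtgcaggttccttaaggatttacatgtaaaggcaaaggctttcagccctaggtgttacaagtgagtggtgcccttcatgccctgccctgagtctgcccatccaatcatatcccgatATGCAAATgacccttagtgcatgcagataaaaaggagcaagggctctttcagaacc
Rarb, chr14:16575477-16575726, minus strand: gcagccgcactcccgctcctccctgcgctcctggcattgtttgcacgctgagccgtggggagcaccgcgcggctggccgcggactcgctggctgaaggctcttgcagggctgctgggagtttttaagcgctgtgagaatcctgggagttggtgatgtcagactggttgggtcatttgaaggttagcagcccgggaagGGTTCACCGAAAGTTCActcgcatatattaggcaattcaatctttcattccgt

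A DR5 element is a pair of half-sites in the same orientation with 5 bases between them. The half-sites searched, on both strands, were AGGTCA, its variant AGTTCA, a further variant GGGTCA and lastly the variant GGTTCA, and spacings of 1 (DR1) and 2 (DR2) were searched as well. Rarb held a DR5 at bases -53 to -37 from its start site, and it was the only member window with any of these repeats. Over all 32851 RefSeq windows of 300 bases (250 before and 50 from the start site on), 0.0974% held a DR5, 0.268% a DR2 and 0.222% a DR1. The octamer ATGCAAAT, looked for after the sequences had been read, lay at -84 to -77 in Aldh1a2 and at -56 to -49 in the downstream of 2 windows of Aldh1a1. The window of Aldh1a7, a close paralog of Aldh1a1, had it at the same place as Aldh1a1. Of all windows 1.74% held the octamer. The AP-1 motif, searched as TGACTCA and as its middle-base variant TGAGTCA, was in the other Aldh1a1 window (5.20% of all windows), TATAAA in that of Cyp26b1 (13.6%), and TGACGTCA in no member window (1.79%). These are matches of letters and not measured sites.

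Gene counts summed to 11107481 to 15406967 per library, so that 1 read was worth 0.0623 to 0.099 CPM. Endothelial markers were present in all libraries: the 12 on the list summed to 7874 to 9846 CPM in PBS and 8461 to 11760 CPM in PTZ, with Flt1 and Esam at the highest mean. RNA of other cells was present too. Markers of microglia summed to 2705 to 3292 CPM in PBS and 1784 to 2809 CPM in PTZ, with 0 of 12 members having a positive log2 fold change. Markers of pericytes and smooth muscle summed to 217 to 589 CPM and 385 to 1172 CPM (11 of 11 tested members positive), and those of fibroblasts of vessels and meninges to 99.1 to 172 CPM and 96.2 to 328 CPM (9 of 10 positive). Border macrophages (730.2 to 1026 and 788 to 1007 CPM), astrocytes (86.0 to 177 and 110 to 239), oligodendrocytes (85.3 to 231 and 96.7 to 189), neurons (272 to 453 and 262 to 463) and choroid plexus and ependyma (2.46 to 8.90 and 4.85 to 6.55) overlapped between the groups. The sums given before these overlapped too. Genes with a positive log2 fold change were 8 of 12 for endothelium, 4 of 8 for border macrophages and 7 of 8 for astrocytes. They were 2 of 6 for oligodendrocytes, 4 of 7 for neurons and 1 of 2 for choroid plexus and ependyma. Over all genes tested, 7258 of 13768 were positive. No marker of any of the 9 lists was at 0 in every library. In bulk RNA, fewer cells of a type and less RNA per cell cannot be told apart.

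Aldh1a2 encodes retinaldehyde dehydrogenase 2, the main retinoic acid making enzyme of the embryo and of the meninges. It lies on chromosome 9 (ENSMUSG00000013584, GRCm38, 71215789 to 71296243, plus strand), and no other gene of GENCODE M21 shares its exons. It had 30, 15 and 12 reads in PBS libraries 1, 2 and 4 and 259, 86 and 434 reads in PTZ libraries 1, 2 and 4. On the CPM scale these were 1.87, 1.48 and 0.904 in PBS and 18.9, 8.51 and 27.1 in PTZ. The groups did not overlap, and the lowest PTZ library was 4.56 times the highest PBS library. The means were 1.42 ± 0.485 CPM in PBS and 18.2 ± 9.31 CPM in PTZ (SD, n = 3 each), 12.8 times higher in PTZ, with an edgeR log2 fold change of 3.67 (SE 0.57). Within libraries of the same number the log2 difference of CPM, with 0.5 CPM added, was 3.03, 2.19 and 4.30 for numbers 1, 2 and 4, so number 2 had the smallest step and number 4 the largest.

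Fibroblasts are cells known to make Aldh1a2, so its level is set beside their markers. The summed fibroblast markers stood at 116, 99.1 and 172 CPM in PBS libraries 1, 2 and 4 and at 280.5, 96.2 and 328 CPM in PTZ. PTZ libraries 1 and 4 were high in both measures. PTZ library 2 had the lowest fibroblast sum of all 6 and more Aldh1a2 than any PBS library. Per 100 CPM of summed fibroblast markers, Aldh1a2 stood at 1.61, 1.49 and 0.525 CPM in PBS and at 6.74, 8.85 and 8.27 CPM in PTZ, which did not overlap. Per 100 CPM of pericyte and smooth muscle markers it stood at 0.862, 0.459 and 0.154 CPM in PBS and 1.61, 2.21 and 2.51 CPM in PTZ. The fibroblast genes with the highest means were the matrix proteoglycans Lum and Dcn. Dcn was at 83.0, 22.4 and 78.4 CPM in PTZ libraries 1, 2 and 4 and at 17.9 to 39.6 CPM in PBS, and Lum at 69.3, 28.6 and 64.0 CPM and at 30.1 to 76.0 CPM. These genes carry much of the sum, and the collagen genes of the list, named after their values were seen, stood further apart in their means. Col1a2 was at 52.5, 19.2 and 54.5 CPM in PTZ and at 10.8 to 15.9 CPM in PBS with no overlap. Col1a1 was at 18.8, 6.73 and 37.2 CPM and at 2.37 to 6.93 CPM, with overlap. Col3a1 overlapped too, at 6.57, 3.46 and 17.7 CPM in PTZ and 0.623 to 4.97 CPM in PBS. Set against each of the 10 tested fibroblast genes alone, an alternative added after seeing the data, Aldh1a2 did not overlap between the groups for 7 and overlapped for 3, which were Col1a1, Col3a1 and Fbln1. Per CPM of Col1a1 it stood at 0.79, 0.5 and 0.13 CPM in PBS and at 1.01, 1.26 and 0.728 CPM in PTZ, so the separation depends on the gene used. Slc47a1 of that list was near 0 throughout, with at most 0.374 CPM. Aldh1a2 was picked for its group difference, with its lowest PTZ library at 4.56 times its highest PBS library. Its ratios to the marker sums and single markers carry that difference by construction and are a description. The cells that gave the Aldh1a2 reads were not tested.

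**Figure D1:**
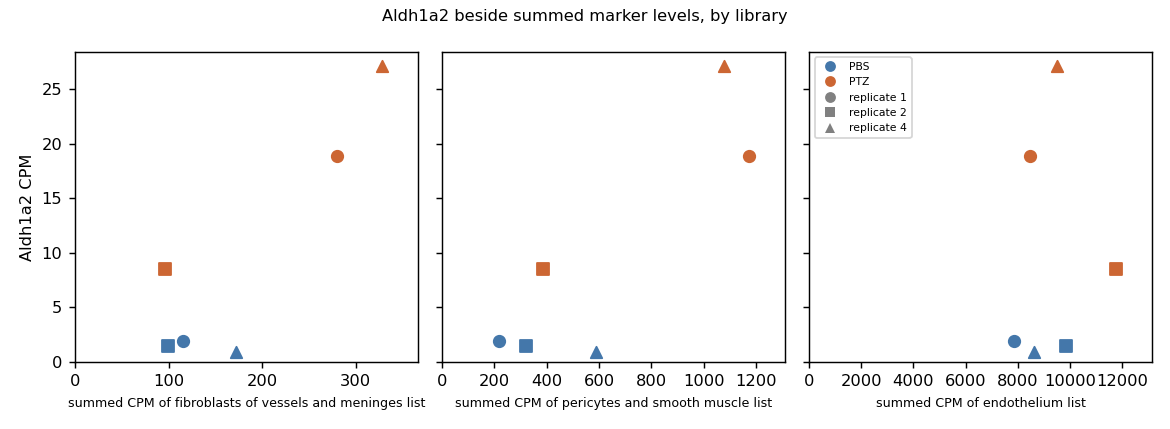
Aldh1a2 (CPM, vertical axis) against the summed CPM of 3 marker lists (horizontal axes), with 1 point per library, PBS in blue and PTZ in orange, and the symbol giving the replicate number. PTZ library 2 (square) has 8.51 CPM of Aldh1a2 at a fibroblast sum of 96.2 CPM. The PBS libraries have 0.904 to 1.87 CPM at sums of 99.1 to 172 CPM. Single genes of the list can differ from the sum, as Col1a2 in PTZ library 2 (19.2 CPM) was above PBS (10.8 to 15.9 CPM).

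Aldh1a1, a relative that also makes retinoic acid, lies on chromosome 19 (ENSMUSG00000053279, 20492715 to 20643465, plus strand). It stood at 23.5, 19.7 and 20.4 CPM in PBS libraries 1, 2 and 4 and at 45.9, 22.1 and 39.2 CPM in PTZ. PTZ libraries 1 and 4 were well above PBS, but PTZ library 2 lay within the PBS range, so the groups overlapped. The means were 21.2 ± 2.01 and 35.7 ± 12.3 CPM (log2 fold change 0.75, SE 0.31). Per 100 CPM of the fibroblast sum, Aldh1a1 stood at 20.3, 19.9 and 11.9 CPM in PBS and at 16.4, 22.9 and 12.0 CPM in PTZ, so that on this scale, too, the groups overlapped. Reads of Aldh1a1 and its paralog Aldh1a7, which had 1.21 to 4.45 CPM over the 6 libraries, may be split uncertainly by the counting.

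Aldh1a3, the remaining dehydrogenase, lies on chromosome 7 (ENSMUSG00000015134, 66390890 to 66427517, minus strand). Its values were 18.7, 19.7 and 14.8 CPM in PBS and 13.1, 15.3 and 7.49 CPM in PTZ libraries 1, 2 and 4. The means were 17.7 ± 2.60 and 12.0 ± 4.04 CPM (log2 fold change -0.57, SE 0.37), opposite in sign to the other dehydrogenases. PTZ library 2 lay above PBS library 4, so the groups overlapped, while each PTZ library was below the PBS library of its number (log2 differences of -0.50, -0.35 and -0.94). Per 100 CPM of summed endothelial markers it stood at 0.237, 0.200 and 0.171 CPM in PBS and at 0.154, 0.130 and 0.0787 CPM in PTZ, which did not overlap. Relative to 100 CPM of fibroblast markers it overlapped (16.1, 19.9 and 8.58 CPM in PBS, 4.66, 15.9 and 2.29 CPM in PTZ), as it did per pericyte and smooth muscle markers.

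Because read counts grow with transcript length, the dehydrogenases were set against each other as CPM per kilobase of annotated exon. In PBS, Aldh1a1 made up 49.4%, 44.8% and 53.5% of the summed level per length in libraries 1, 2 and 4, Aldh1a3 42.0%, 47.9% and 41.4%, and Aldh1a2 8.57%, 7.32% and 5.16%. In PTZ the share of Aldh1a2 was 40.8%, 32.5% and 55.5%, that of Aldh1a3 13.8%, 28.8% and 7.53%, and that of Aldh1a1 45.4%, 38.7% and 36.9%. On this length Aldh1a2 had the lowest share in every PBS library, and Aldh1a3 had it in every PTZ library. With the longest coding transcript as the length, Aldh1a2 made up 5.09%, 4.43% and 2.99% in PBS and 26.4%, 21.4% and 38.9% in PTZ. Aldh1a1 then had the largest share in every PTZ library (61.6%, 53.3% and 54.1%), and in PTZ library 2 Aldh1a3 (25.4%) stood above Aldh1a2, so the order among the dehydrogenases in PTZ turns with the length. The sum of the dehydrogenases per length was 9.62, 8.90 and 7.73 CPM per kilobase in PBS and 20.5, 11.5 and 21.5 in PTZ. These shares rest on the same counts that picked Aldh1a2 and are a description.

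**Figure D2:**
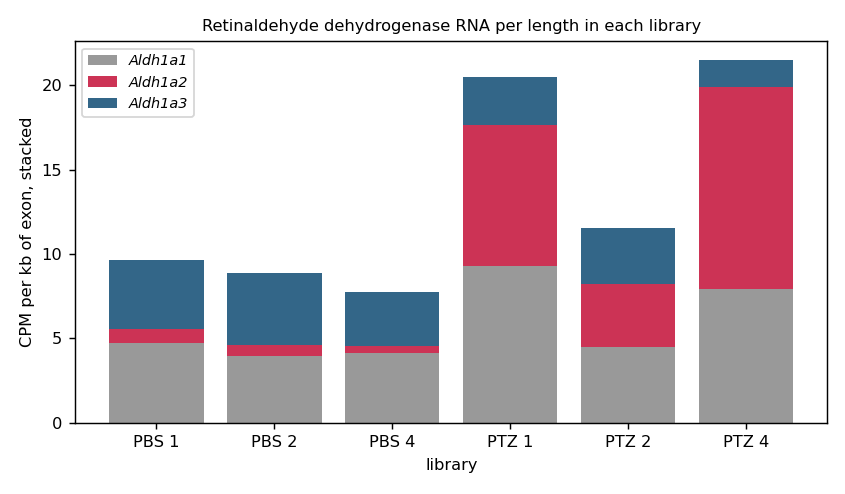
Stacked levels per length (CPM per kilobase of exon, vertical axis) of Aldh1a1, Aldh1a2 and Aldh1a3 in each of the 6 libraries (horizontal axis). The Aldh1a2 segment is 0.399 to 0.825 in the PBS libraries and 3.76 to 12.0 in the PTZ libraries, and the Aldh1a3 segment is smallest in PTZ library 4 (1.62).

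Stra6, the retinol receptor, lies on chromosome 9 (ENSMUSG00000032327, 58063788 to 58153996, plus strand). It stood at 27.3, 69.0 and 31.6 CPM in PBS and at 29.0, 55.9 and 55.3 CPM in PTZ libraries 1, 2 and 4. PBS library 2 was the highest of all 6 and the groups overlapped, with means of 42.7 ± 22.9 and 46.8 ± 15.4 CPM (log2 fold change 0.14, SE 0.39). The sign of that value turned negative in edgeR without PBS library 1, PBS library 4, PTZ library 2 or PTZ library 4, so no direction is given. Per length, Stra6 had the highest mean of the 9 genes in PBS (7.32 ± 3.93 CPM per kilobase).

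Cyp26b1, which oxidises retinoic acid for removal, lies on chromosome 6 (ENSMUSG00000063415, 84571414 to 84593908, minus strand). It was scarce, with 10, 2 and 8 reads in PBS and 2, 39 and 32 reads in PTZ libraries 1, 2 and 4. On the CPM scale it stood at 0.623, 0.197 and 0.603 in PBS and at 0.146, 3.86 and 1.997 in PTZ. PTZ libraries 2 and 4 were above all PBS libraries. PTZ library 1, where Aldh1a2 was at 18.9 CPM, had 2 reads of Cyp26b1, as PBS library 2 did. The order of the PTZ libraries differed between Aldh1a2 and Cyp26b1, but at these counts nothing is read from it. Cyp26a1, the relative known for its induction by retinoic acid, had 0 reads in all PTZ libraries, which allows up to 0.297 CPM in the shallowest by a limit of 3 reads, and 0.0984 CPM at most in PBS. Such limits cover counting error only.

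Among the receptors, Rarg had the clearest separation. It encodes RAR gamma and lies on chromosome 15 (ENSMUSG00000001288, 102234938 to 102257517, minus strand). Its values were 21.8, 29.6 and 24.3 CPM in PBS and 8.32, 17.6 and 17.4 CPM in PTZ libraries 1, 2 and 4. The groups did not overlap, and the lowest PBS library was 1.24 times the highest PTZ library. The means were 25.2 ± 4.01 and 14.4 ± 5.31 CPM, 1.75 times higher in PBS, with a log2 fold change of -0.80 (SE 0.35). PTZ library 1 was the lowest, and without it the log2 fold change was -0.52. Within the same numbers the log2 differences were -1.34, -0.73 and -0.47. Per 100 CPM of summed endothelial markers, Rarg stood at 0.277, 0.301 and 0.281 CPM in PBS and at 0.0983, 0.150 and 0.183 CPM in PTZ, with no overlap. Relative to 100 CPM of fibroblast markers it overlapped (18.8, 29.9 and 14.1 CPM in PBS, 2.97, 18.3 and 5.31 CPM in PTZ), as it did per pericyte and smooth muscle markers (10.1, 9.20 and 4.12 CPM in PBS, 0.710, 4.58 and 1.61 CPM in PTZ). The summed markers of microglia were lower in PTZ library 1 (1784 CPM) than in PTZ libraries 2 and 4 (2413 and 2809 CPM), as Rarg was. In PBS the orders differed, since library 1 had the highest microglia sum (3292 CPM) and the lowest Rarg. In PTZ library 1, 9.34% of reads fell in no annotated gene, where the others had 2.99% to 5.19%. Their part in the Rarg values was not tested.

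Rara, which encodes RAR alpha, lies on chromosome 11 (ENSMUSG00000037992, 98927818 to 98974942, plus strand). It stood at 23.1, 44.4 and 24.0 CPM in PBS and at 17.5, 47.5 and 21.1 CPM in PTZ. Libraries numbered 2 were the highest in both groups, and the groups overlapped (30.5 ± 12.0 and 28.7 ± 16.4 CPM, log2 fold change -0.09, SE 0.42). Its sign turned positive without PBS library 2, PTZ library 1 or PTZ library 4. Rxra, the gene of the shared partner RXR alpha, lies on chromosome 2 (ENSMUSG00000015846, 27676440 to 27762957, plus strand). It had 40.9, 33.3 and 28.6 CPM in PBS and 31.5, 39.3 and 43.2 CPM in PTZ, and overlapped between the groups (log2 fold change 0.15, SE 0.25).

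Rarb, whose DR5 element is printed above, lies on chromosome 14 (ENSMUSG00000017491, 16430839 to 16819156, minus strand). It is the receptor gene best known for being switched on by retinoic acid itself. It had 1, 1 and 0 reads in PBS and 4, 2 and 1 reads in PTZ libraries 1, 2 and 4. These are levels of 0 to 0.0984 CPM and 0.0624 to 0.292 CPM, and 0 reads in PBS library 4 allows up to 0.226 CPM. At this depth no difference was detectable, and Rarb was close to absent from the reads of both groups. Its exons share 1793 bases with exons of Top2b on the other strand, and the counting's strand setting was another detail not given in the sources used here. Top2b stood at 30.8 to 53.1 CPM in PBS and 37.5 to 85.9 CPM in PTZ, while Rarb held at most 4 reads in any library. Of the summed RAR genes per length, Rara made up 49.2% to 59.3% in PBS and 54.1% to 72.3% in PTZ, and Rarg nearly all of the rest.

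**Figure D3:**
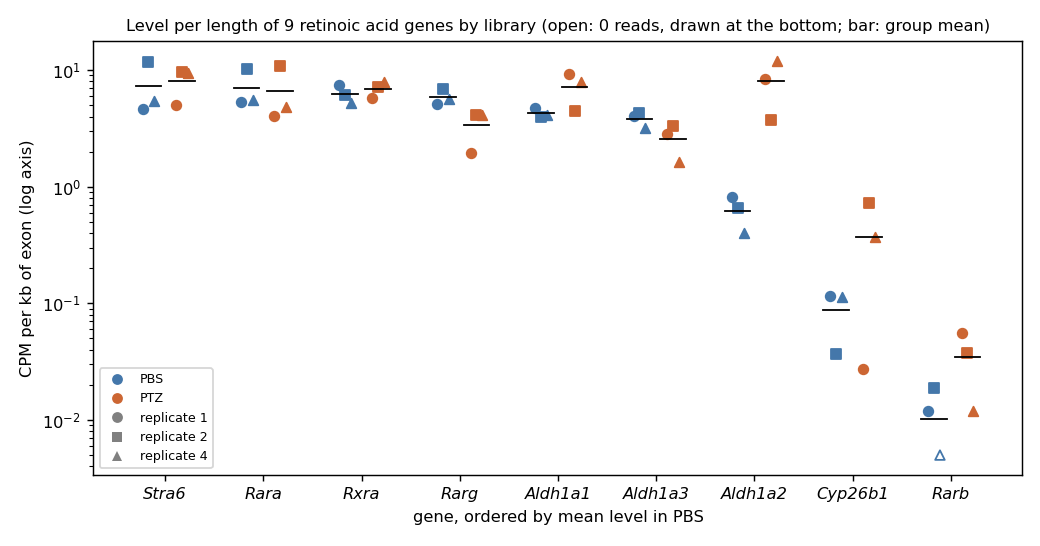
Level of each of the 9 genes per length (CPM per kilobase of exon, log axis) in every library, PBS in blue and PTZ in orange, with bars at the group means and the open symbol for a library with 0 reads. Genes are ordered by their PBS mean, from Stra6 (7.32) to Rarb (0.0102), and Aldh1a2 moves from 0.626 in PBS to 8.02 in PTZ.

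On the per-length scale the PBS means fell into tiers. Stra6 (7.32), Rara (6.99), Rxra (6.27) and Rarg (5.92 CPM per kilobase) were followed by Aldh1a1 (4.29) and Aldh1a3 (3.84), then Aldh1a2 (0.626), Cyp26b1 (0.0886) and Rarb (0.0102). Neighbours among the first 4 overlapped in their libraries, as did Aldh1a1 and Aldh1a3. The steps from Rarg to Aldh1a1, from Aldh1a3 to Aldh1a2 (6.13 times), from Aldh1a2 to Cyp26b1 (7.06 times) and from Cyp26b1 to Rarb (8.71 times) parted all libraries of the neighbours. In PTZ, Stra6 (8.02), Aldh1a2 (8.02), Aldh1a1 (7.24), Rxra (6.96), Rara (6.58), Rarg (3.39) and Aldh1a3 (2.59) each overlapped with their neighbour, and only the step down to Cyp26b1 (0.374) parted the libraries. With the longest coding transcript of each gene as its length, Aldh1a2 kept rank 7 of 9 in PBS and took rank 4 in place of 2 in PTZ, and Aldh1a1 took rank 3 in PBS and 2 in PTZ.

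By edgeR's quasi-likelihood test, with p adjusted over all 13768 genes tested, 0% passed 0.05 upward in PTZ and 0% downward, and so 0 of the 7 tested members passed. At an unadjusted p under 0.05, 3.83% of all genes were higher and 3.38% lower. The groups were apart with PTZ higher for 1 of the 7 tested members, Aldh1a2, and for 7.30% of all genes tested, and apart with PTZ lower for 1, Rarg, and 7.04% of all genes. The median log2 fold change was 0.14 over the 7 tested members and 0.03 over all genes. Aldh1a2 passed in 3 of the 14 alternative fits: DESeq2 (0.385% of genes called higher), edgeR without the filter on low counts (0.221%) and DESeq2 with the replicate number as a block (0.963%, an alternative added after seeing the data). Since this contrast picked the gene, nothing is read from those calls. No other member passed in any alternative.

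**Figure D4:**
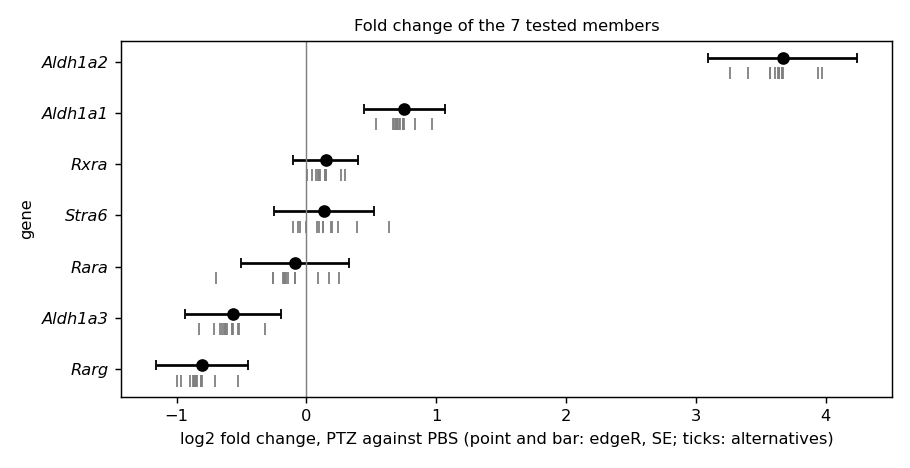
Log2 fold change of PTZ against PBS (horizontal axis) for the 7 tested members (vertical axis), with the edgeR estimate and its SE as point and bar and each alternative fit as a grey tick. Aldh1a2 lies at 3.67 with alternatives from 3.26 to 3.97, while the ticks of Stra6 and Rara fall on both sides of 0.

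Other genes of the pathway were taken from lists written by role. Of 92 genes, 57 were tested, and by the edgeR fit 0 passed upward and 0 downward, as over all genes. At an unadjusted p under 0.05, 6 (10.5%) were higher and 2 (3.51%) lower, beside 3.83% and 3.38% of all genes. The libraries were apart with PTZ higher for 6 (10.5%) and with PTZ lower for 2 (3.51%), beside 7.30% and 7.04% of all genes. The median log2 fold change was 0.08, against 0.03 over all genes.

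The list of retinol and retinaldehyde oxidation and reduction held 12 tested genes. It included Bco2 and Aldh1a7, itself an aldehyde dehydrogenase gene, so not all act upstream of the dehydrogenases. Of the 12, 10 had a negative log2 fold change (median -0.18), beside 6510 of the 13768 genes tested. Rdh10, which oxidises retinol, was among the others, at 4.11, 6.59 and 5.42 CPM in PBS and 9.49, 11.7 and 2.995 CPM in PTZ, with overlap. Most of the negative values were smaller than their SE, such as Dhrs4 (-0.09, SE 0.25) and Rdh12 (-0.17, SE 0.93). Rdh11, a retinol dehydrogenase family member that reduces retinaldehyde, stood at 23.8, 30.6 and 36.5 CPM in PBS and 15.3, 15.4 and 12.2 CPM in PTZ libraries 1, 2 and 4, with no overlap (log2 fold change -1.08, SE 0.29, edgeR adjusted p = 0.535). Dhrs3, a retinaldehyde reductase, was at 141 ± 36.5 and 128 ± 32.5 CPM in PBS and PTZ, and the alcohol dehydrogenase gene Adh1 at 150.5 ± 94.5 and 132.5 ± 97.1 CPM. Of the genes of uptake, storage and binding, the fatty acid transporter gene Cd36 was at 11.1 ± 4.26 and 9.41 ± 0.875 CPM.

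Of 9 tested genes known to be induced by retinoic acid, 7 had a positive log2 fold change (median 0.52), beside 7258 of the 13768 genes tested. Some of these were uncertain, such as Hoxb4 (0.20, SE 0.96) and Meis2 (0.84, SE 0.88). The list is not complete, and genes placed under another role were not counted in it. Stra6 (log2 fold change 0.14) and Dhrs3 (-0.15), both with overlap, were among the genes under other roles. Rarb and Cyp26a1, which retinoic acid also induces, were outside this list and too scarce to test. The libraries were apart with PTZ higher for 1 of the 9 (11.1%, beside 7.30% of all genes), Zbtb16. It is a zinc finger transcription factor that glucocorticoids also induce, and it stood at 132, 120 and 168 CPM in PBS and at 204, 201 and 198 CPM in PTZ (log2 fold change 0.52, SE 0.21, edgeR adjusted p = 0.686). Tgm2, a transglutaminase, was at 583 ± 128 and 756 ± 257 CPM and overlapped. Among 12 coregulators of nuclear receptors 8 were positive (median 0.25). Ncoa1, a coactivator, stood at 55.5 ± 4.99 CPM in PBS and 82.7 ± 8.53 CPM in PTZ with no overlap (edgeR adjusted p = 0.648), Crebbp, another coactivator, at 177 ± 15.7 and 243 ± 48.7 CPM, also with no overlap, and the corepressor gene Ncor1 at 195 ± 23.9 and 236 ± 37.6 CPM.

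Of 8 tested receptors that can pair with RXR, 7 were positive (median 0.68). Nr4a2 stood at 9.59, 40.1 and 9.27 CPM in PBS and at 70.3, 62.6 and 64.0 CPM in PTZ (edgeR adjusted p = 0.577). Nr4a1 was at 18.9, 245 and 27.8 CPM in PBS and 227, 261 and 232 CPM in PTZ, so PBS library 2 stood apart from the other PBS libraries. Neither gene passed in the main fit. Without PBS library 2 both passed (log2 fold changes of 3.33 for Nr4a1 and 2.76 for Nr4a2), among 8 of 14755 tested genes called higher. That fit leaves out the PBS library where both genes were highest, so nothing is read from it. Nr4a1 and Nr4a2 are also immediate early genes. The liver X receptor gene Nr1h2 was at 91.4 ± 3.35 and 102 ± 5.46 CPM, with no overlap. Rxrb was at 56.0 ± 2.87 and 51.7 ± 13.5 CPM, and Rxrg was too scarce to test. Of 10 tested aldehyde dehydrogenases outside the ALDH1A group 6 were positive (median 0.03), with Aldh2, the mitochondrial acetaldehyde enzyme, at 332 ± 105 and 387 ± 128 CPM and Aldh9a1 at 96.2 ± 17.1 and 79.9 ± 8.70 CPM.

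**Figure D5:**
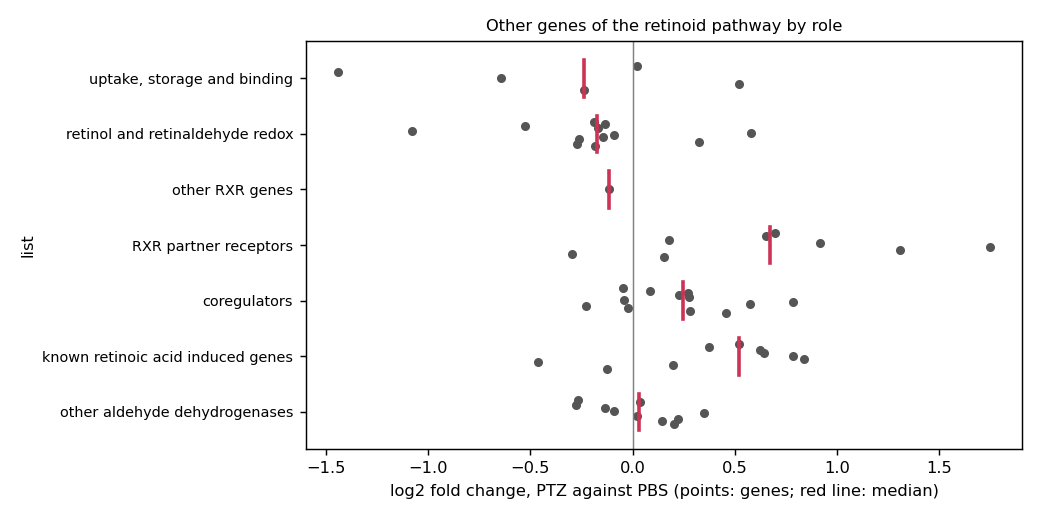
Log2 fold change of PTZ against PBS (horizontal axis) of the 57 tested pathway genes, grouped by role (vertical axis), with 1 point per gene and a red line at each list's median. Medians run from -0.24 for uptake, storage and binding to 0.68 for receptors that pair with RXR, and 0 genes pass the threshold over all genes.

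Over the 6 libraries, the genes closest to Aldh1a2 in pattern were sought among 9643 protein coding genes with a mean of at least 5 CPM. Likeness was the root mean square difference, in log2 units, between levels centred on each gene's own mean, with 0.5 CPM added. The 6 closest were Ccl2 (0.49), a chemokine, Nr4a3 (0.55), an orphan nuclear receptor, Aifm3 (0.57), Marcksl1 (0.70), Errfi1 (0.73), whose product restrains epidermal growth factor receptor signalling, and Arhgef17 (0.76). The median over all genes compared was 1.70. The measure uses the same libraries whose group difference picked Aldh1a2, so genes near it share that difference by construction and the distances are a description. The floor of 5 CPM was on the mean over all libraries. Of the 6 closest, all but Errfi1 had a PBS mean under that floor and so entered through their PTZ values. Ccl2 stood at 0.872, 0.591 and 1.28 CPM in PBS libraries 1, 2 and 4 and at 22.9, 6.43 and 16.7 CPM in PTZ, with PTZ library 2 the lowest of its group, as for Aldh1a2. Errfi1 was as high in PTZ library 2 (144 CPM) as in the others (160 and 140.1 CPM). Of the other members Aldh1a1 was the closest at 1.29, with 244 of the compared genes closer, and Rarg the farthest at 2.13.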

How the data were processed

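RNA sequencing libraries of brain endothelial cells, 3 per group, were compared. The authors deposited raw counts per Ensembl gene, per the file headers, and a scaled signal per library that equals the count divided by 1 factor (100% of values whole within 0.01 reads), used only as an alternative scaling. GRCm38, HTSeq, TopHat2 2.1.1, edgeR and CASAVA appear, with no role or order, in the submitters' processing notes. Rows that name no gene held 16.1% to 22.9% of reads and were left out. Coordinates and exon lengths came from GENCODE M21 (GRCm38), which matched 53360 of 53465 IDs, and promoters from RefSeq (GRCm38.p6).

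Software was DESeq2 1.42.0, limma 3.58.1, edgeR 4.0.16 and R 4.3.3. Genes were filtered by filterByExpr (minimum count 10, minimum total 15), scaled by TMM (factors 0.864 to 1.14) and tested across all genes with edgeR's quasi-likelihood test on group, 2-sided, with Benjamini-Hochberg adjustment at 0.05. The common dispersion was 0.221. SE values came from the fold change and its statistic. CPM used TMM-scaled totals, and exact permutation of 3 against 3 libraries cannot go below p = 0.1, so none was run.

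Members and lists were chosen with earlier results of these data known. All members were named. From each pathway list, up to 3 genes were named: those past the threshold, or the 2 with the highest mean and the 1 with the smallest p. Further named list genes were chosen after their values were seen. A gene that the rule also named is not reported here. The main fit did not pair libraries, and no label says what the replicate numbers pair. Same-numbered libraries were only set side by side and used as a block in alternatives. Their deviations from group means correlated at 0.191, 0.238 and 0.246 across genes. Libraries of a group differed beyond sampling noise (chi-square per degree of freedom 43.8 to 99.1). Simulated counts of the 13768 genes had changes only in genes with a mean of at least 5 CPM, and no effect of replicate number. They give no recovery for scarcer genes. On these counts edgeR found 17 of 100 genes given a 2-fold change, 62 of 100 given a 4-fold change, and 2 unchanged ones. DESeq2 found 31, 82 and 29. Alternatives were RLE and the authors' scaling, no filter and a mean of at least 5 CPM, DESeq2, limma-voom, a replicate block and each library left out.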

Additional observations from a re-analysis of the deposited data

How the results depend on the processing

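Of the 7 tested members, Aldh1a1, Aldh1a3, Rarg and Rxra kept their sign and did not pass in any of the 14 alternatives (log2 fold changes of 0.54 to 0.96, -0.83 to -0.32, -1 to -0.52 and 0.01 to 0.30). Aldh1a2 kept its sign in all 14 (3.26 to 3.97, also the range with each library left out) and passed in 3: without the filter on low counts (3.64), in DESeq2 (3.66) and in DESeq2 with the replicate block (3.57). The counts that picked Aldh1a2 put all its PTZ libraries above all its PBS libraries, so its sign could hardly turn. Nothing is read from its kept sign or its passes. Stra6 turned negative without PBS replicate 1 (-0.10), PBS replicate 4 (-0.06), PTZ replicate 2 (-0.05) or PTZ replicate 4 (-0.01), in a range up to 0.64. Rara turned positive without PBS replicate 2 (0.25), PTZ replicate 1 (0.17) or PTZ replicate 4 (0.09), in a range down to -0.70. Over all genes, 77 were higher and 44 lower without the filter, DESeq2 called 53 higher and 23 lower, limma-voom called 1 higher, and DESeq2 with the replicate block, added after seeing the data, called 130 higher and 77 lower. With each library left out, 0 to 8 were higher and 0 lower, the 8 without PBS replicate 2. Other pathway genes that passed were Nr4a1 and Nr4a2 without the filter (2 higher) and without PBS replicate 2 (2, range 0 to 2), and Nr4a2 in DESeq2 with the block (1). With the replicate number as a block, edgeR again called 0 higher and 0 lower, with Aldh1a2 at 3.57. The cause of these changes was not tested. Depth limits Rarb, with 2 reads in PBS and 7 in PTZ over all libraries. Cyp26b1, with 20 and 73 reads, could be fitted in 5 alternatives (1.67 to 2.58) and did not pass in any. These were the fit without the filter and those without PBS replicate 1, 2 or 4 or PTZ replicate 1. With a library left out, Cyp26b1 passed the filter only through PTZ libraries 2 and 4, where it was highest. Nothing is read from its sign in these fits.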

Other observations

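Some scarce genes of retinoid handling varied widely between libraries of a group. These were chosen after their values were seen. Lrat, the enzyme that stores retinol as esters, stood at 3.96 CPM in PTZ library 2 and at 0 to 0.394 CPM in the other libraries. Crabp2, which carries retinoic acid to its receptors, stood at 9.36 CPM in PTZ library 4, at 1.62 CPM in PBS library 1, and at 0 to 0.146 CPM elsewhere. Rbp7, a retinol binding protein gene, stood at 17.8 CPM in PBS library 2, where Stra6 was also highest (69.0 CPM), at 0.872 and 0.98 CPM in the other PBS libraries and at 6.43 to 6.80 CPM in PTZ. Lrat and Crabp2 did not pass the filter on low counts, and the groups overlapped for all of them.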
